A study of Mus musculus with 4 samples.

Results

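The genes described are 9 brakes of the cell cycle: the inhibitors of cyclin-dependent kinases Cdkn1a, Cdkn1b, Cdkn2a, Cdkn2b, Cdkn2c and Cdkn2d, and the retinoblastoma family Rb1, Rbl1 and Rbl2. They were taken by symbol, 9 of the 34547 genes that the tables cover. RNA came from laser-cut cartilage of C57BL/6 mouse forelimbs, as 2 libraries of proliferating chondrocytes (PC, replicates 1 and 2) at E14.5 and 2 of hypertrophic chondrocytes (HC, replicates 3 and 4) at E15.5. No mutation or treatment is named for either group, and age and cell state changed together, so their parts cannot be told apart. Nothing says whether libraries came from separate animals, so p-values measure the spread between these libraries, which may be technical.

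A chondrocyte of the growth plate divides in columns, then leaves the cell cycle and enlarges. Cyclin D with Cdk4 or Cdk6, and later cyclin E with Cdk2, phosphorylate the pocket proteins encoded by Rb1, Rbl1 and Rbl2, which otherwise hold E2F factors and silence the genes of DNA replication. Inhibitors of the INK4 class (Cdkn2a to Cdkn2d) bind Cdk4 and Cdk6, and those of the Cip/Kip class (Cdkn1a, Cdkn1b and Cdkn1c) bind cyclin-kinase pairs more widely. Mice that lack both Rbl1 and Rbl2 have short limbs with excess chondrocyte division.

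Libraries held 15246529 to 36644496 estimated counts, both HC libraries being shallower than both PC libraries. Of mapped counts, mitochondrial transcripts took 8.81% and 13.15% in PC against 20.16% and 14.11% in HC, and HC replicate 3 stood apart with 8.75% in the gene model Gm10800 against 1.75% to 2.67% elsewhere. The cells matched their labels by marker level: 7 hypertrophic markers summed to 261 and 1610 CPM in PC against 32900 and 39800 in HC, 7 chondrocyte markers to 40000 to 60500 CPM in all 4 libraries, and 6 proliferation markers to 1870 and 2300 in PC against 637 and 217 in HC. None of these 20 markers was at 0 in any library. By the test described below, 3 of the 7 hypertrophic markers rose and 2 of the 6 proliferation markers fell. Of all genes, 2.75% rose and 1.96% fell. None of the 7 chondrocyte markers passed. The match thus rests on sums, which follow their most abundant genes. CPM is a count per 1000000 counts after TMM scaling (trimmed mean of M values), and TPM is abundance per transcript length.

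In HC, Cdkn1a was 8.16-fold and Rb1 5.06-fold higher than in PC, and both rose by edgeR's quasi-likelihood test at an adjusted p threshold of 0.05 over all genes. No member fell. In bulk tissue, fewer cells with an RNA and less of that RNA per cell cannot be told apart. Of the 9 members 7 had enough counts to be tested, 2 rose and 5 did not pass, whereas 2.75% of the 16607 genes tested were called higher and 4.71% were called in either direction. The median log2 fold change (HC minus PC) of the 7 was -0.43, and that of all genes tested was -0.04. Both libraries of one group lay beyond both of the other for 5 of the 7 (2 above, 3 below), a share close to the 61.0% of all genes for which this held.

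How many members passed varied with the library left out, and so did the share of all genes. Each such fit leaves 1 group with 1 library, which is assumed to vary like the pair that remains, so only that pair gives the spread and a call there is no replicate check. Without HC replicate 3, Cdkn1a, Rb1 and Cdkn2b were higher, 3 members where 13.1% of all genes were, and Cdkn2c, Cdkn2d and Rbl1 lower, 3 where 15.2% were, by edgeR. Without HC replicate 4, 2 were higher (18.3%) and 0 lower (20.7%). Without PC replicate 1 only Cdkn1a was higher (2.08%) and 0 were lower (1.41%), and without PC replicate 2 both were higher (3.28%) and 0 lower (2.98%). With no low-count filter 2 were higher (3.99%) and 0 lower (4.0%), with a length offset 1 higher (1.61%) and 0 lower (0.994%), and with DESeq2 2 higher (9.51%) and 0 lower (8.34%).

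**Figure D1:**
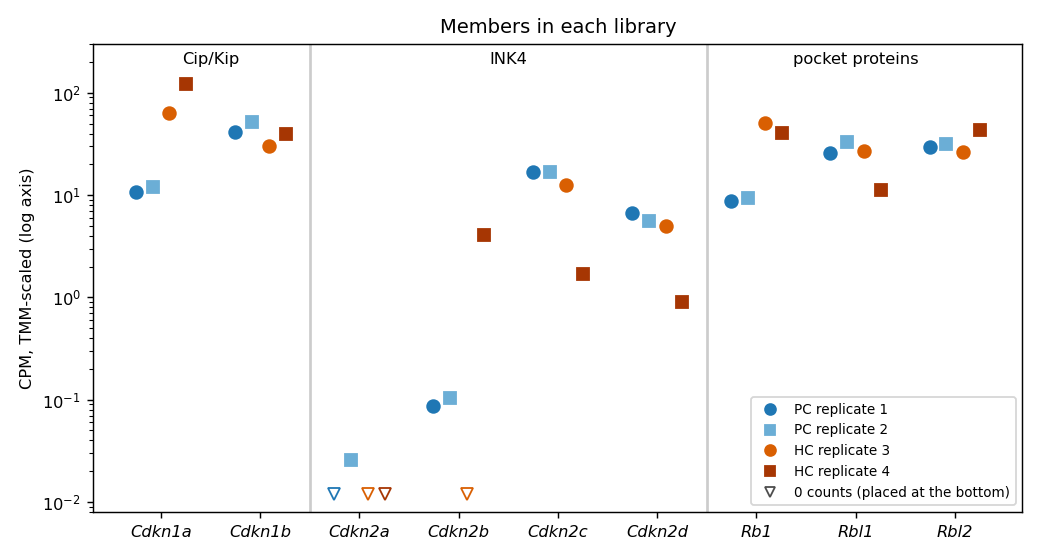
Level of each of the 9 genes in each library, in CPM on a log axis, with 1 point per library and open triangles for 0 counts. Cdkn1a and Rb1 lie higher in both HC libraries than in both PC libraries, and Cdkn2c, Cdkn2d and Rbl1 lie lowest in HC replicate 4.

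Cdkn1a (ENSMUSG00000023067, chromosome 17, 29090976 to 29100727, plus strand, GRCm38) encodes p21, the inhibitor that p53 and many growth-arrest signals induce. It stood at 10.7 and 12.1 CPM in PC and at 63.5 and 122 CPM in HC replicates 3 and 4. The PC libraries lay close together, both HC libraries lay far above them, and the HC libraries differed 1.92-fold between themselves. The log2 fold change was 3.03 ± 0.42 (SE, 2 libraries per group, adjusted p from edgeR = 0.0359), and 2.43 without HC replicate 4. On the TPM scale the same gene had 9.25 and 9.0 in PC against 28.3 and 85.4 in HC. The call was lost with scaling to library size alone (2.82, edgeR adjusted p = 0.0556), with coding transcripts only (3.09, edgeR adjusted p = 0.053) and on TPM with limma (2.31, adjusted p = 0.0944), with the direction kept.

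Nearly all Cdkn1a counts, 99.4% to 100% in the 4 libraries, were assigned to the transcript Cdkn1a-201 (chromosome 17, 29093769 to 29100722, plus strand). The transcript Cdkn1a-202, which begins upstream at 29090979, was listed with 0 counts in all 4. The windows around both starts are shown because the counts tell them apart: each runs from 250 bases before to 50 bases after a RefSeq start (GRCm38.p6), 5′ to 3′, and capitals mark a GC box, the letters GGGCGG on either strand. GC boxes are the sites of Sp1, a factor through which Cdkn1a is known to be induced.
Cdkn1a, start used (chr17:29093519-29093818, plus strand): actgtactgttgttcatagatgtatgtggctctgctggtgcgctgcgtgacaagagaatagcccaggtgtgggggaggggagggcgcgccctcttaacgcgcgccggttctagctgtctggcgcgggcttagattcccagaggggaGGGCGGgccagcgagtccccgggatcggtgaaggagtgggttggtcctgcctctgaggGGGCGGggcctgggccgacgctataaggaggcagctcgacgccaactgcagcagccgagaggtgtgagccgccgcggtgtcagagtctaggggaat
Cdkn1a, upstream start (chr17:29090729-29091028, plus strand): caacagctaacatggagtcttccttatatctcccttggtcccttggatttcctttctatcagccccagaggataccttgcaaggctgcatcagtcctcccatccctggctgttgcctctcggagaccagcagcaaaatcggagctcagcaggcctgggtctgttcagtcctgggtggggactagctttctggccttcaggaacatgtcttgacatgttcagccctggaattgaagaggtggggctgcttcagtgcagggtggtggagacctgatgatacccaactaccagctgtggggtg
The window of the start in use held 2 GC boxes, beginning 104 and 46 bases before the start, and the upstream window held none. Of 32851 promoter windows of the same length 35.7% held at least 1, so a match is common and describes the letters only.

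Cdkn1b (ENSMUSG00000003031, chromosome 6, 134920401 to 134925513, plus strand) encodes p27, which holds cyclin E and Cdk2 inactive and is removed by the ubiquitin ligase subunit Skp2. It had 41.0 and 52.2 CPM in PC against 29.9 and 39.2 in HC. In CPM the HC libraries lay just below the PC libraries, and the distance was smaller than the gap within either group. On the TPM scale Cdkn1b had 24.4 and 28.5 in PC against 8.67 and 20.0 in HC replicates 3 and 4. The log2 fold change of -0.43 ± 0.32 did not reach the threshold (adjusted p from edgeR = 0.442). On TPM with limma it was -0.94 and did not pass either (adjusted p = 0.313). Its 3 transcripts Cdkn1b-201, Cdkn1b-202 and Cdkn1b-203 held 25.2% to 41.7%, 33.6% to 52.9% and 21.9% to 27.4% of its counts. Cdkn1b-201 had the largest share in PC replicate 2 and Cdkn1b-202 in the other libraries, though by little in HC replicate 4 (36.4% against 36.2%).

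Within each library the levels of both inhibitors can be compared per length, as TPM of coding transcripts. Cdkn1a stood at 0.38 and 0.316 times the level of Cdkn1b in PC and at 3.26 and 4.27 times in HC. Their order was thus opposite in the groups, in all 4 libraries. Their summed TPM was 33.7 and 37.5 in PC against 37 and 105 in HC, so HC replicate 3 had a total like that of PC with a different make-up. The third gene of the class, Cdkn1c, encodes p57, which mice need for hypertrophic differentiation. It was far more abundant at 2140 and 2640 CPM in PC against 3320 and 2280 in HC, with a log2 fold change of 0.23 ± 0.39 that did not reach the threshold (adjusted p from edgeR = 0.755). Scaling to library size alone gave it -0.06, and it had -0.39 on TPM and -0.10 without HC replicate 3.

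Cdkn2c (ENSMUSG00000028551, chromosome 4, 109660876 to 109667189, minus strand) encodes p18, an INK4 inhibitor that was at 17.0 and 16.9 CPM in PC and at 12.6 and 1.71 CPM in HC replicates 3 and 4. Cdkn2d (ENSMUSG00000096472, chromosome 9, 21288410 to 21291407, minus strand) encodes another, p19Ink4d, and had 6.65 and 5.56 CPM in PC against 4.95 and 0.900 in HC. In CPM, the PC libraries and HC replicate 3 lay near each other in both genes, and HC replicate 4 lay far below. The HC libraries differed 7.36-fold in Cdkn2c and 5.5-fold in Cdkn2d, against 1.01-fold and 1.20-fold between the PC libraries. On the TPM scale HC replicate 3 also lay below both PC libraries. Cdkn2c had 12.0 and 11.1 TPM in PC against 4.27 and 1.15 in HC replicates 3 and 4. Cdkn2d had 10.9 and 5.73 TPM in PC against 3.88 and 2.04 in HC. Neither passed: the log2 fold change was -1.26 ± 0.87 for Cdkn2c and -1.08 ± 0.90 for Cdkn2d (edgeR adjusted p = 0.409 and 0.496). On TPM with limma they had -1.90 and -1.22 (adjusted p = 0.135 and 0.246). Set against PC alone, HC replicate 4 gave -3.34 and -2.79 (edgeR adjusted p = 0.000581 and 0.00443 without HC replicate 3, with the spread of the PC pair only). Without HC replicate 4 they were at -0.47 and -0.35 and did not pass.

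Cdkn2b (ENSMUSG00000073802, chromosome 4, 89306299 to 89311039, minus strand) encodes p15, the INK4 inhibitor that TGF-beta induces. It had 3 and 4 estimated counts in PC, 0 in HC replicate 3 and 90 in HC replicate 4, which is 0.0872, 0.104, 0 and 4.05 CPM. Signal was thus near the detection limit of 3 counts in 3 libraries and clear in 1. HC replicate 4 was 42.2-fold above both PC libraries together (95% Clopper-Pearson interval 19.7 to 108, counting error only) and at least 16.6-fold above HC replicate 3 at a floor of 3 counts per library. Too few counts kept the gene out of the test, and with no filter it did not pass (log2 fold change 4.32 ± 2.01, edgeR adjusted p = 0.228). Without HC replicate 3 the value was 5.31 (edgeR adjusted p = 0.00067), which sets the single library HC replicate 4 against the spread of the PC pair.

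Cdkn2a (ENSMUSG00000044303, chromosome 4, 89274471 to 89294653, minus strand), the gene of p16Ink4a and p19Arf, had 1 estimated count in PC replicate 2 and 0 in the other libraries. A count of 0 allows up to 0.0872 CPM in PC replicate 1 and 0.244 and 0.135 CPM in HC replicates 3 and 4. It was therefore not detectable at this depth in either state. The 4 INK4 genes summed to 23.0 and 17.0 TPM of coding transcripts in PC against 8.15 and 7.20 in HC, and in HC replicate 4 Cdkn2b made up 55.7% of that sum against 0% to 0.647% in the other libraries.

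**Figure D2:**
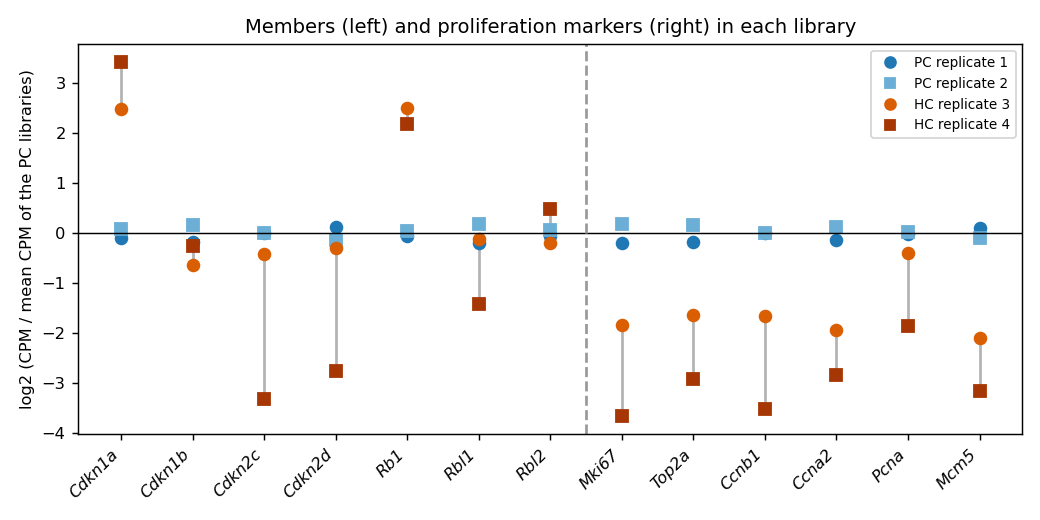
Level of 7 of the genes and of 6 proliferation markers in each library, as log2 of CPM over the mean of the PC libraries, with a grey line joining both HC libraries. Cdkn2c, Cdkn2d and Rbl1 are lower in HC replicate 4 than in HC replicate 3, as are all 6 markers.

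HC replicate 4, in which Cdkn2c and Cdkn2d were low, also had the lowest levels of proliferation markers. Mki67, a marker of cycling cells, had 1150 and 1480 CPM in PC against 366 and 104 in HC replicates 3 and 4. All 6 such markers were lower in HC replicate 4 than in HC replicate 3, by 1.85-fold (Ccna2) to 3.61-fold (Ccnb1). Both sets of genes thus ordered the HC libraries alike, and the part of cycling cells in the values of the inhibitors was not tested.

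Rb1 (ENSMUSG00000022105, chromosome 14, 73183673 to 73325822, minus strand) encodes the retinoblastoma protein, which binds the activating E2F factors. It had 8.75 and 9.37 CPM in PC against 51.0 and 40.8 in HC. Both HC libraries lay well above both PC libraries, and in CPM the libraries of a group differed by at most 1.25-fold. On the TPM scale the HC libraries lay further apart, with 7.45 and 5.91 in PC against 53.6 and 18.4 in HC replicates 3 and 4. The log2 fold change was 2.34 ± 0.33 (SE, 2 libraries per group, adjusted p from edgeR = 0.0359). The call was lost without PC replicate 1 (2.25, edgeR adjusted p = 0.0547), with a length offset (3.06, edgeR adjusted p = 0.0788), with scaling to library size alone (2.06, edgeR adjusted p = 0.0515) and on TPM with limma (2.09, adjusted p = 0.114), always in the same direction.

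Part of the Rb1 count fell on short transcripts that lie over other genes. All 408 bases of the transcript Rb1-206 lie in exons of Lpar6, a receptor gene on the opposite strand inside an Rb1 intron, and 383 of the 411 bases of Rb1-202 lie in exons of Rcbtb2. Reads there cannot be told apart without strand. The coding transcript Rb1-201 (chromosome 14, 73195502 to 73325822, minus strand) took 87.6% and 90.1% of Rb1 counts in PC against 69.6% and 94.9% in HC. On its own it stood at 7.66 and 8.44 CPM in PC against 35.5 and 38.7 in HC, so the gap between groups was as clear and the HC libraries closer together. Its log2 fold change was 2.27 ± 0.35 (edgeR adjusted p = 0.0530) in a fit on coding transcripts, in which edgeR called 0 of 14595 genes, with 3761 at an unadjusted p under 0.05. Lpar6 itself had 4.13 and 3.63 CPM in PC against 13.2 and 13.4 in HC, short of the threshold (1.78 ± 0.45, edgeR adjusted p = 0.0788). Of the 4656 bases of Rb1-201, 105 lie in exons of Rcbtb2 too. Rcbtb2 had 46.7 and 46.2 CPM in PC against 46.8 and 38.1 in HC, and did not pass (-0.13 ± 0.29, edgeR adjusted p = 0.811).

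**Figure D3:**
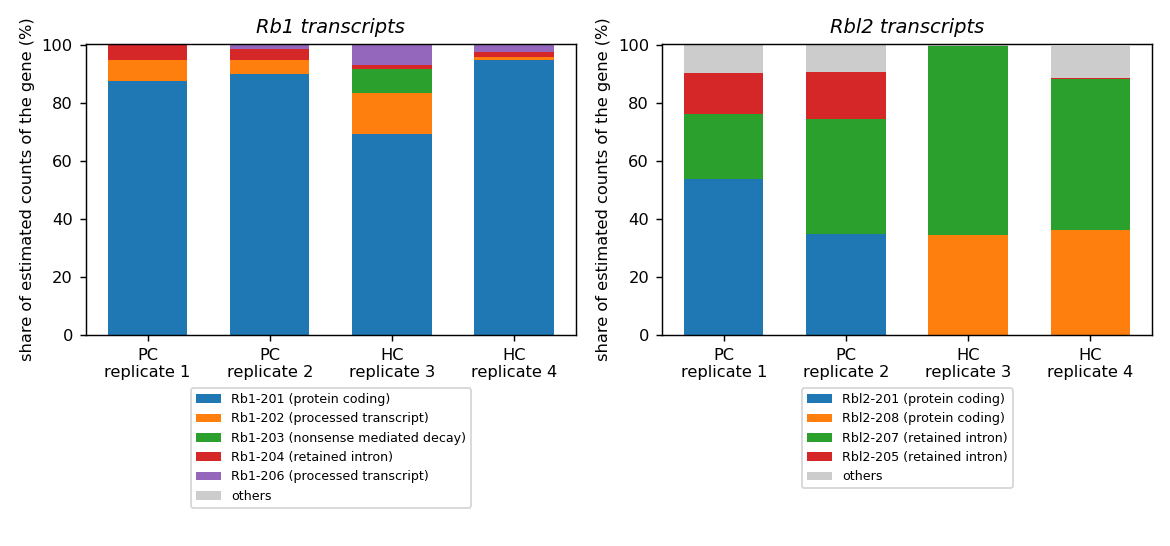
Share of the estimated counts of Rb1 and of Rbl2 assigned to each annotated transcript in each library, in percent, with 1 bar per library. Rb1-201 holds 69.6% to 94.9% of Rb1 counts, and the coding counts of Rbl2 are on Rbl2-201 in PC and on Rbl2-208 in HC.

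Rbl1 (ENSMUSG00000027641, chromosome 2, 157145893 to 157204534, minus strand) encodes p107, a pocket protein of cycling cells whose gene is itself an E2F target. It had 25.7 and 33.2 CPM in PC against 27.0 and 11.1 in HC replicates 3 and 4. The groups overlapped, since HC replicate 3 lay between the PC libraries. Coding transcripts alone had 21 and 26.9 CPM in PC against 19.8 and 11 in HC, without overlap, and did not pass either (-0.57 ± 0.45, adjusted p from edgeR = 0.481). The log2 fold change of -0.64 ± 0.49 did not reach the threshold (adjusted p from edgeR = 0.460), and it was -1.44 without HC replicate 3 (edgeR adjusted p = 0.0183, with the spread of the PC pair only). Without HC replicate 4 it was -0.18 and did not pass.

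The window around the Rbl1 start is shown because it carries the only E2F site found among the members with clear expression. The letters searched on both strands were TTTCCCGC, TTTGGCGC, TTTCGCGC and TTTGCCGC for E2F, GGGCGG for a GC box, TTTGAA for the CHR element of DREAM targets and TATAAA for a TATA box; matches of different motifs may overlap. Capitals mark E2F and GC box matches.
Rbl1 (chr2:157204485-157204784, minus strand): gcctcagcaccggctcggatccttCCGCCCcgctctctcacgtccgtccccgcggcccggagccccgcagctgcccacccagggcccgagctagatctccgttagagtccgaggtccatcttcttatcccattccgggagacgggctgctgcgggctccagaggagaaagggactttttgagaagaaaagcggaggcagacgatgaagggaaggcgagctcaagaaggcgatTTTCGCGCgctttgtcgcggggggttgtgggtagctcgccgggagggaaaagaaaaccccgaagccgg
The E2F match began 18 bases before the start and the GC box 226 bases before it. An E2F match stood in 2.26% of all 32851 windows and in 2 of the 11 windows of the members, the other being that of the p19Arf start of Cdkn2a. A GC box was in 9 of the 11, a CHR element (17.9% of all windows) in 2, those of Cdkn2b and Rbl2, and a TATA box (13.6%) in none. RefSeq windows matched 8 of the 9 members by symbol, and Rb1 was not among them.

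Rbl2 (ENSMUSG00000031666, chromosome 8, 91070057 to 91123844, plus strand) encodes p130, the pocket protein that forms the DREAM repressor with E2f4 in resting cells. Its summed level was 29.6 and 31.9 CPM in PC against 26.6 and 42.9 in HC. The HC libraries lay on either side of the PC libraries, and the log2 fold change of 0.18 ± 0.35 did not reach the threshold (adjusted p from edgeR = 0.786). The sign turned with scaling to library size alone (-0.04), with coding transcripts only (-0.05), on TPM (-0.23) and without HC replicate 4 (-0.25). Transcripts with a retained intron held 46.2% and 65.2% of Rbl2 counts in PC against 65.4% and 63.8% in HC. The 95% Wilson intervals were 43.2% to 49.3%, 62.5% to 67.8%, 59.9% to 70.2% and 60.7% to 66.8% (counting error only). They leave out the error of assigning reads to transcripts. Rbl2-207 alone held 22.5% and 39.8% of Rbl2 counts in PC against 65.1% and 52.1% in HC, and 347 of its 821 bases lie in exons of Aktip on the opposite strand. Aktip rose, from 11.3 and 15.2 CPM to 46.2 and 52.5, a log2 fold change of 1.89 ± 0.33 (adjusted p from edgeR = 0.0425). Coding transcripts of Rbl2 alone had 15.9 and 11.1 CPM in PC against 9.19 and 15.6 in HC, again with overlap between the groups. They too lie partly in exons of Aktip, with 418 of 4925 bases in Rbl2-201 and 416 of 4792 in Rbl2-208.

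The coding counts of Rbl2 sat on different transcripts in the groups. Rbl2-201 had 547 and 427 estimated counts in PC and 0 in both HC libraries, and Rbl2-208 had 0.2 and 0 in PC against 113 and 346 in HC, and counts were rounded to whole numbers for the shares that follow. Rbl2-208 thus took 0% of the sum of both in PC, where counts of 0 allow up to 0.548% and 0.703%, and 100% in HC (95% Wilson intervals 96.7% to 100% and 98.9% to 100%, counting error only). These limits treat every estimated count as a read of known transcript. They leave out the error of the split itself, which may be much larger. Set against Rbl2-201, which has 22 exons, Rbl2-208 lacks a stretch of the 5′ UTR at the start of exon 1 (chromosome 8, 91070057 to 91070157), 2 bases at the 3′ end, and 30 coding bases, or 10 codons, in exon 11 (91096764 to 91096793, GRCm38, plus strand). It holds no base that Rbl2-201 lacks. The join of exons 10 and 11 is shown from the GENCODE M21 transcripts with 24 bases on either side, because this choice of splice site is the only coding difference, and capitals mark the 30 bases.
Rbl2-201: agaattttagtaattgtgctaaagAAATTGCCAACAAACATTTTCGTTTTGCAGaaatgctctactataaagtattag
Rbl2-208: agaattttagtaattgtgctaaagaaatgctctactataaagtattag
The stretch ends in CAG, as an intron does before a splice acceptor. The tables do not give how many reads covered these 30 bases, kallisto splits reads between such nested transcripts by likelihood, and no test was made of the split. In Cdkn2d the assignment also varied within a group. Cdkn2d-203 held 73.8% and 100% of its counts in PC against 78.5% and 0% in HC replicates 3 and 4. Over transcripts of 2000 bases or more, the median of effective minus annotated length was -172.8 and -153.3 bases in PC and -124.7 and -145.5 in HC, a measure that follows fragment size, whose part in the split was not tested.

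Within the retinoblastoma family, Rb1 supplied 17.9% and 18.9% of the summed TPM of coding transcripts in PC against 56.0% and 60.1% in HC. Rbl1 supplied 47.0% and 57.6% in PC against 29.9% and 16.4% in HC, and Rbl2 35.1% and 23.5% in PC against 14.1% and 23.5% in HC. The ratio of Rb1 to Rbl1 was 0.381 and 0.328 in PC against 1.88 and 3.67 in HC. The sum of the family was 14.2 and 13.0 TPM in PC against 11.1 and 17.6 in HC, so its total overlapped between groups while Rb1 moved from the least to the most abundant of its members.

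Ordered by the same measure, Cdkn1b led in PC with 24.4 and 28.5 TPM, followed by Cdkn2c (12.0 and 11.1), Cdkn1a (9.26 and 9.0), Cdkn2d (10.9 and 5.73), Rbl1 (6.70 and 7.47), Rbl2 (5.0 and 3.04) and Rb1 (2.55 and 2.45), with Cdkn2b and Cdkn2a near 0. In that order Cdkn2d overlapped both Cdkn1a and Rbl1 in range, and the other neighbours did not overlap. In HC the order was Cdkn1a (28.3 and 85.4), Cdkn1b (8.67 and 20.0) and Rb1 (6.23 and 10.6), the last overlapping with Cdkn1b. Rbl1 (3.32 and 2.89), Cdkn2d (3.88 and 2.04), Rbl2 (1.57 and 4.14), Cdkn2c (4.27 and 1.15) and Cdkn2b (0 and 4.01) followed, and each overlapped the gene before it except Rbl1.

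**Figure D4:**
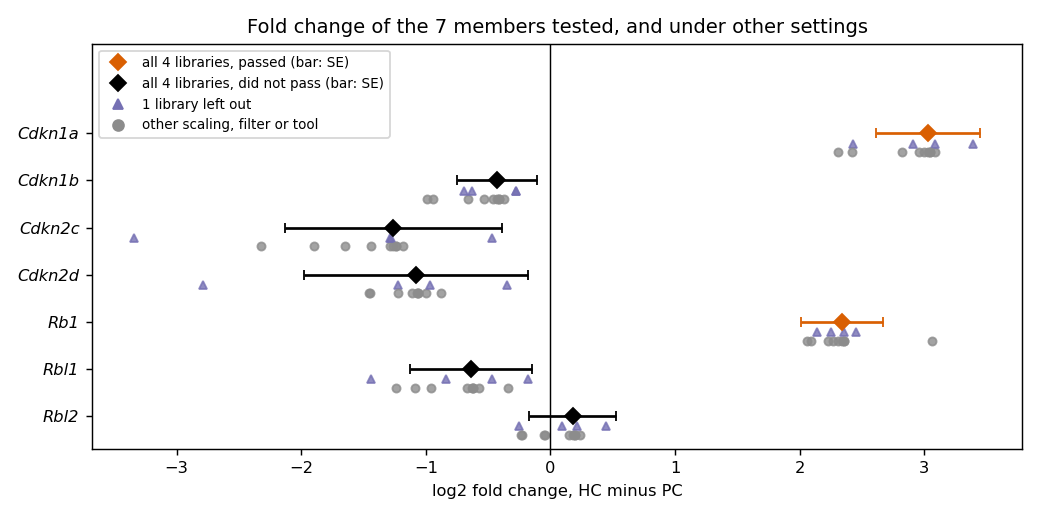
Log2 fold change (HC minus PC) of the 7 genes tested, with the SE as a bar, and below each the values with 1 library left out (triangles) and under other scaling, filters or tools (grey). Cdkn1a and Rb1 stay above 2 in every setting shown, and Rbl2 lies on both sides of 0.

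The HC libraries in which Cdkn1a and Rb1 were high also differed from PC in the summed levels of markers of other cell types, some of which passed the test (2.75% of all genes were called higher). Endothelial markers (6) summed to 21.6 to 24.4 CPM in PC and 126 to 237 in HC, with Cldn5 at 0 in 3 libraries, and 2 of 5 tested rose. Macrophage and osteoclast markers (7, none at 0) summed to 19.0 to 29.0 and 175 to 362, and 3 of 7 rose, and red blood cell markers (7, none at 0) to 24.8 to 43.1 and 306 to 332, and 4 of 7 rose. Muscle markers (7) summed to 12.2 to 20.6 in PC and 52.4 to 199 in HC, where Myod1 was at 0 in both libraries and Myog in 1, and 1 of 5 rose. Osteoblast and perichondrium markers (7) summed to 672 to 1170 and 4500 to 13300, with 1 of 6 higher and with Bglap at 0 in PC replicate 1, Scx in HC replicate 3 and Tnmd in PC replicate 1 and HC replicate 4. Epidermal markers (5) summed to 4.78 to 7.24 and 6.41 to 28.1 with Krt5 at 0 in 3 libraries and Cdh1 in HC replicate 3, and 0 of 3 passed. The part of these cells in the Cdkn1a and Rb1 values was not tested.

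A list of G1 and S phase cyclins, their kinases and activators, which also held the inhibitor Cdkn1c, had 16 genes, of which 15 were tested, 3 fell and 0 rose (background 1.96% lower). Ccnd1, a D-type cyclin that partners Cdk4 and Cdk6, fell from 98.0 and 94.2 CPM to 29.1 and 29.7, a log2 fold change of -1.71 ± 0.28 (adjusted p from edgeR = 0.0392), and passed in 3 of the 4 fits with a library left out (0.0925 without PC replicate 1). Ccna2 and Cdk1, which drive S phase and mitosis, fell as well (-2.32 ± 0.40 and -1.93 ± 0.38), the latter not without PC replicate 1 (edgeR adjusted p = 0.116) or PC replicate 2 (0.103). Cdk4 and Cdk6 did not pass, at -1.04 ± 0.37 and 0.06 ± 0.30 (edgeR adjusted p = 0.143 and 0.921), though Cdk4 passed at -1.32 without HC replicate 4 and Cdk6 turned to -0.21 there, -0.18 with library size alone, -0.19 with a length offset and -0.77 on TPM. The list's median was -1.04, and 1, 3, 7 and 6 of its genes were lower without PC replicates 1 and 2 and HC replicates 3 and 4 in turn (1.41%, 2.98%, 15.2% and 20.7% of all genes).

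Of 19 genes of E2F, DP, DREAM and related factors, only some of them partners of the pocket proteins, 3 fell and 0 rose (background 1.96% lower), with a median of -0.99. E2f1, which Rb1 restrains, fell from 43.1 and 46.0 CPM to 5.03 and 7.47, a log2 fold change of -2.83 ± 0.37 (adjusted p from edgeR = 0.0359). Its dimer partner Tfdp1 fell from 197 and 201 CPM to 46.0 and 35.4, a log2 fold change of -2.29 ± 0.31, and the mitotic factor Foxm1 fell too (-2.82 ± 0.52, and -3.48 without HC replicate 3). E2f4, the partner of Rbl2, had -1.69 ± 0.41 and did not reach the threshold after the low-count filter (adjusted p from edgeR = 0.0755). On all libraries it passed with no low-count filter (edgeR adjusted p = 0.0189) and with DESeq2 (adjusted p = 0.00504), but in no other setting. It was also called when PC replicate 2 (-2.05), HC replicate 3 (-1.46) or HC replicate 4 (-2.06) was dropped, each time on the spread of 1 pair. Leaving out PC replicates 1 and 2 and HC replicates 3 and 4 in turn gave 4, 6, 11 and 11 genes lower, against 1.41%, 2.98%, 15.2% and 20.7% of all genes.

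Among 30 genes that pocket proteins and E2F silence in cells leaving the cycle, Rbl1 included, 8 fell and 0 rose (background 1.96% lower). Of these 8, E2f1, Ccna2 and Cdk1 are also counted in the lists above, so the lists are not separate evidence. The median was -1.79, and 28 of the 30 had both HC libraries below both PC libraries, against 33.3% of all genes tested. Cdt1, which licenses replication origins, fell from 26.2 and 14.7 CPM to 1.46 and 1.17, a log2 fold change of -3.96 ± 0.54 (adjusted p from edgeR = 0.0359), as did Cdca7 (-4.47) and the checkpoint kinase Bub1 (-2.49). Dropping PC replicate 1 cost Cdt1 and Cdca7 their calls (edgeR adjusted p = 0.0559 and 0.0972). Without the same 4 libraries in turn 7, 14, 29 and 18 of the list were lower, with the shares of all genes given above. Rbl1 was thus one of 22 genes of the list that did not pass with all 4 libraries, where the others ranged from -2.52 to -0.47.

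**Figure D5:**
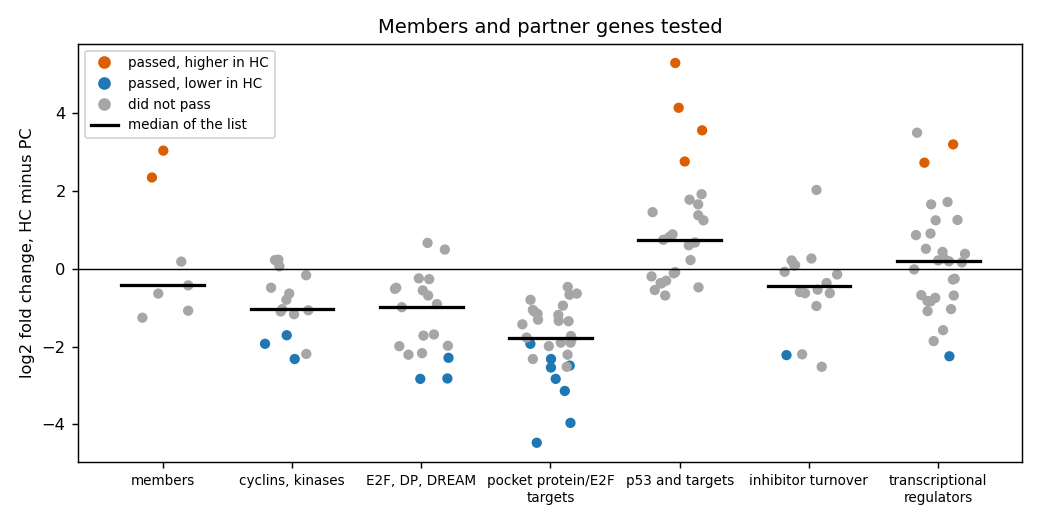
Log2 fold change (HC minus PC) of every gene tested among the 7 members and in 6 lists of partner genes, with 1 point per gene, the median as a bar and colour for genes that passed. The genes that passed in the cyclin, E2F and target lists all lie below 0, and those of the p53 list above 0.

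The p53 list held the regulators and other targets of the factor best known to induce Cdkn1a. Of 25 genes tested 4 rose and 0 fell, with a median of 0.74 (background 2.75% higher). Perp, a membrane protein, rose from 1.02 and 1.43 CPM to 20.7 and 22.2, a log2 fold change of 4.13 ± 0.47 (adjusted p from edgeR = 0.0359), and Trp53inp1 from 9.76 and 18.3 CPM to 133 and 196, a log2 fold change of 3.55 ± 0.45. The kinase gene Plk2 rose by 5.28, with values of 4.54, 6.71 and 4.65 when PC replicate 1, PC replicate 2 or HC replicate 4 was dropped, and Gadd45a by 2.75, a call lost without PC replicate 1 (edgeR adjusted p = 0.240) or PC replicate 2 (0.106). Trp53 itself and Mdm2, a classical p53 target, did not pass, at -0.55 ± 0.35 and 0.22 ± 0.28 (edgeR adjusted p = 0.371 and 0.668). Mdm2 turned to -0.03 with library size alone, -0.10 with a length offset, -0.22 on coding transcripts and -0.54 on TPM. Without PC replicates 1 and 2 and HC replicates 3 and 4 in turn, 3, 3, 8 and 10 genes of the list were higher (2.08%, 3.28%, 13.1% and 18.3% of all genes) and 0, 0, 0 and 3 lower.

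Of 16 genes linked to turnover of the inhibitors, most of them for ubiquitin ligase subunits, 1 fell and 0 rose (background 1.96% lower), with a median of -0.46. It was Dtl, the adaptor that targets p21 in S phase (-2.22 ± 0.40, edgeR adjusted p = 0.0440). Skp2, which targets p27, went from 77.8 and 79.1 CPM in PC to 24.1 and 10.3 in HC. With all 4 libraries and the low-count filter it fell short of the threshold (-2.20 ± 0.47, edgeR adjusted p = 0.0573). It passed on all 4 with no low-count filter (edgeR adjusted p = 0.00406) and with DESeq2 (adjusted p = 0.000189), but in no other setting on all 4. With any 1 library left out it was called on the spread of 1 pair (-2.24, -2.21, -2.97 and -1.75). Its cofactor Cks1b had -0.63 ± 0.44 (edgeR adjusted p = 0.416). Cul4b, of the same list, went the other way, from 43.3 and 80.7 CPM in PC to 301 and 204 in HC. With all 4 libraries and the low-count filter it also fell short (2.02 ± 0.43, edgeR adjusted p = 0.0569). Of the 16 genes, 9 had both HC libraries below both PC libraries and 2 had both above. Those orders held for 33.3% and 27.7% of all genes tested. Leaving out any 1 library gave 3 genes of this list lower, where 1.41% to 20.7% of all genes were.

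Of 29 genes known to control transcription of the inhibitors, 2 rose (background 2.75%) and 1 fell (background 1.96%), with a median of 0.19. Ets1 and Runx1 rose by 2.72 ± 0.36 and 3.20 ± 0.54 (edgeR adjusted p = 0.0359 and 0.0401), the latter by 3.85 without PC replicate 2. Myc, which represses Cdkn1a and Cdkn2b, fell from 242 and 128 CPM to 30.7 and 46.9, a log2 fold change of -2.25 ± 0.44 (adjusted p from edgeR = 0.0496), a call lost without PC replicate 1 (-1.76, edgeR adjusted p = 0.0684). Bmi1, the Polycomb subunit that silences Cdkn2a, had 11.7 and 16.4 CPM in PC against 45.9 and 41.8 in HC. With all 4 libraries and the low-count filter it fell short of the threshold (1.65 ± 0.34, edgeR adjusted p = 0.0538). It passed on all 4 with no low-count filter (edgeR adjusted p = 0.019) and with DESeq2 (adjusted p = 0.000768), but in no other setting on all 4. It was called on the spread of the PC pair without HC replicate 3 (1.55) or HC replicate 4 (1.66), and not without PC replicate 1 (edgeR adjusted p = 0.441) or PC replicate 2 (0.109). Without the 4 libraries in turn 2, 2, 7 and 7 of the list were higher (2.08%, 3.28%, 13.1% and 18.3% of all genes) and 0, 2, 4 and 6 lower (1.41%, 2.98%, 15.2% and 20.7%), so that the last share is that of all genes.

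The genes nearest to Cdkn1a in profile over the 4 libraries, by Euclidean distance of centred log2 CPM among 7623 protein-coding genes, were Csf1 (0.09), Enc1 (0.13), Chst1 (0.14), Kif21b (0.21) and Kalrn (0.21). Csf1, the growth factor of macrophages and osteoclasts, had 16.1, 17.1, 86.9 and 170 CPM in PC replicates 1 and 2 and HC replicates 3 and 4. Nearest to Rb1 were the guidance ligand Slit3 (0.09), Camk2n1 (0.16), the protease inhibitor Timp3 (0.26), Specc1 (0.28) and the deacetylase Hdac9 (0.29). Slit3 had 12.1, 12.0, 66.7 and 55.8 CPM in the same order. The likeness to Rb1 rests on its summed counts, higher in HC replicate 3, whereas its coding transcript was at 35.5 CPM there and 38.7 in HC replicate 4. With 4 libraries such likeness is a description only.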

How the data were processed

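Trimmomatic 0.36, kallisto 0.43.1 and mouse build mm10 are named in the submitters' processing notes. Per the file headers, the deposited tables give an estimated count, a TPM value, a length and an effective length (in bases, other values used only for scaling) per transcript. The strand setting was not stated in these sources. Of 109282 transcripts, 107987 matched GENCODE M21 (GRCm38) without version. Sums of these counts over each gene were rounded. edgeR 4.0.16 kept 16607 genes with filterByExpr, scaled them by TMM (factors 1.14 and 1.058 in PC, 0.812 and 1.021 in HC) and tested HC against PC by quasi-likelihood, with Benjamini-Hochberg adjustment over all genes. The SE is the fold change divided by the root of F. limma 3.58.1, DESeq2 1.42.0, R 4.3.3 and Python 3.11.15 were also used, and 13 other settings were run.

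The members and lists were chosen with earlier results of these data known. Of the listed symbols 2 matched no gene. Named were all members, up to 4 genes per list that passed by lowest adjusted p, 11 fixed partners, and the 5 nearest profiles of members that passed (higher group averaging 10 TPM or more, 0.5 CPM added before logs). Cul4b was added with its result known. Library depth was 30373440 and 36644496 estimated counts in PC against 15246529 and 21866266 in HC. PCR copies are not independent molecules, so intervals and floors of 3 counts cover counting error only. For shares of transcripts they also leave out the error of assigning reads to transcripts. The result of 1 further marker list, whose summed level was lower in HC, is not reported here.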

Additional observations from a re-analysis of the deposited data

How the results depend on the processing

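Cdkn1a and Rb1 kept their direction in all 13 other settings, with log2 fold changes of 2.31 to 3.39 and 2.06 to 3.06. With all 4 libraries, TMM scaling and the low-count filter, the smallest adjusted p from edgeR over all genes was 0.0359, close to the threshold. It was 5.65e-05 in edgeR with TMM scaling and no low-count filter, and 4.08e-36 with DESeq2. With scaling to library size alone, with coding transcripts only and with limma on log2(TPM + 1) or log2(TPM + 0.1), 0 genes passed in either direction (edgeR 4394 and 3761 and limma 4260 and 3993 at an unadjusted p under 0.05), so 0 members and 0 genes of each list passed there; library size alone shifted the median of all genes to -0.29 and TPM to -0.39 and -0.59. A length offset gave 268 genes higher and 165 lower, 1 member (Cdkn1a), 1 E2F or DREAM gene lower, and 1 higher and 0 lower transcriptional regulators. With no low-count filter 963 genes were higher and 965 lower, with 8 E2F or DREAM genes and 17 targets lower, 1 turnover gene higher and 3 lower, and 5 regulators higher and 3 lower. DESeq2 called 1644 higher and 1442 lower, with 5 cyclin and kinase genes, 8 E2F or DREAM genes and 18 targets lower, 8 p53 genes higher, 1 turnover gene higher and 3 lower, and 8 regulators higher and 3 lower. With DESeq2's size factors in edgeR 0 regulators were lower.

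Leaving out 1 library, which leaves a group of 1 assumed to vary like the other pair, gave 379 to 3331 genes higher and 257 to 3775 lower (most when HC replicate 4 was dropped), and 1 to 3 members higher and 0 to 3 lower. Those ranges were 1 to 7 lower for the cyclin and kinase list, 0 to 1 higher and 4 to 11 lower for E2F and DREAM genes, 7 to 29 lower for their targets, 3 to 10 higher and 0 to 3 lower for p53 genes, 0 to 1 higher and 3 to 3 lower for turnover genes, and 2 to 7 higher and 0 to 6 lower for regulators. Signs turned for Rbl2 (-0.04 with library size alone, -0.05 with coding transcripts, -0.23 and -0.24 on TPM with 1 and 0.1 added, -0.25 to 0.45 with a library left out), Cdkn1c (-0.06, -0.39 and -0.39 on library size and TPM, -0.10 to 0.43 with a library left out), Cdk6 (-0.18, -0.19 with a length offset, -0.77, -0.81, and -0.21 to 0.22 with a library left out) and Mdm2 (-0.03, -0.10, -0.22 with coding transcripts, -0.54 and -0.56), none of which passed. The cause was not tested. No paired analysis was possible because the groups share no replicate number. Depth limits Cdkn2a and Cdkn2b, which had 0 to 4 counts in all libraries but 1, and Cdkn2c and Cdkn2d in HC replicate 4, with 38 and 20 counts.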
